A study of Homo sapiens with 12 samples.

Results

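The genes described here are 47 ribosome biogenesis and nucleolar genes, a module listed by name that covers RNA polymerase I transcription, small nucleolar ribonucleoproteins (snoRNPs), abundant nucleolar phosphoproteins, the small subunit processome with 40S maturation, and 60S assembly. A gene was found where a probe set of the array carried its symbol alone, and where a gene had several, the one whose mean over 12 arrays was highest stood for it. This gave 41 of the 47 genes, out of 19775 genes in all. NOP56, DKC1, BOP1 and PPAN lay only on probe sets with several symbols, and GNL3 and DDX18 were not listed in the annotation used. All 41 passed the filter on low values, a log2 value over 4 in at least 2 of 12 arrays, as did 10561 genes in all, and the lowest value of any member on any array was 6.14.

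Ribosome biogenesis starts in the nucleolus, where RNA polymerase I transcribes the precursor of most ribosomal RNA. SnoRNPs modify this precursor, the small subunit processome folds and cuts its 5′ part into the 40S precursor, and another set of factors builds the 60S precursor before both are exported. Growing cells, leukaemia cells included, spend much of their transcription on this pathway, and the transcription factor MYC is known to activate many of its genes.

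RNA came from SEM-K2 and RS4:11, established human cell lines of acute lymphoblastic leukaemia that both carry the MLL-AF4 fusion (KMT2A and AFF1). A comparison between them sets 1 line against 1 line. Cells of each line were given vehicle, obatoclax at the EC50 of a 72 h assay, or obatoclax at 3 times that concentration (3xEC50), each for 6 h, starting a day after plating. Obatoclax is a small molecule designed to block antiapoptotic BCL2 family members. The sources used here do not give the concentrations, nor whether they matched between the lines. Each of the 6 groups had 2 replicates, numbered 1 and 2 in the labels, on Affymetrix U133 Plus 2 arrays. Values are the authors' GCRMA values, read as log2, so a difference of 1 is a doubling of signal. The design text calls the replicates biologic. The labels do not say that they came from separate passages, so p-values reflect only the spread among these samples, which may be partly technical. In bulk RNA, fewer cells of a type and less RNA per cell cannot be told apart.

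Within a group the 2 arrays correlated at 0.977 to 0.991 over the genes tested, lowest in SEM-K2 at 3xEC50. Replicate 2 of that group stood apart in RNA quality, with a 3′ minus 5′ log2 difference of 1.97 for ACTB against 0.87 to 1.23 on the other arrays, and of 0.61 for GAPDH against 0.08 to 0.30. RS4:11 vehicle replicate 1 had the highest 18S ribosomal RNA signal, 9.85 on the log2 scale. Several results that rest on either array are given with and without it below. All 9 of 9 B lineage markers found exceeded 4 in at least 2 arrays, among them PAX5 at 12.40 to 12.98, with BLNK at 2.61 and DNTT at 3.67 under that level in SEM-K2 vehicle (means). Of the T and NK markers 1 of 6 did (NKG7), of the myeloid markers 1 of 6 (CSF1R), of the erythroid and megakaryocyte markers 1 of 4 (ITGA2B) and of the epithelial and fibroblast markers 2 of 6 (KRT8 and COL1A1), while CD3D stayed at or under 2.53 and HBB at or under 2.40 on every array. In SEM-K2 the summed T and NK marker level was 17.8 to 19.0 in vehicle, 19.2 to 20.1 at EC50 and 18.9 to 20.2 at 3xEC50, which overlapped vehicle. The myeloid sum there did not overlap, with 19.0 to 19.2 in vehicle, 18.96 to 18.99 at EC50 and 18.7 to 18.8 at 3xEC50, nor did the erythroid and megakaryocyte sum at EC50 (11.1 to 11.2, against 11.3 to 11.5 in vehicle). In RS4:11 the sums of these lists overlapped vehicle at both doses. The part of these markers in the results was not tested.

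Promoter sequences are shown for 5 of the genes that fell under obatoclax, because 4 of them carry the motif most frequent, of the 3 searched, in the members' windows, and UTP20 carries the E-box that MYC is known to bind. Each run is the 250 bases before the RefSeq start of the gene on the assembly GRCh38.p14, written 5′ to 3′ along the gene's own strand. Capitals mark CCGGAAG, the core of an ETS-type motif, on either strand, and in UTP20 the E-box CACGTG. TSR1 lies at chr17:2336458-2336707 on the minus strand, NOP16 at chr5:176388599-176388848 on the minus strand, WDR3 at chr1:117929489-117929738 on the plus strand, DDX21 at chr10:68955920-68956169 on the plus strand and UTP20 at chr12:101279855-101280104 on the plus strand.
TSR1: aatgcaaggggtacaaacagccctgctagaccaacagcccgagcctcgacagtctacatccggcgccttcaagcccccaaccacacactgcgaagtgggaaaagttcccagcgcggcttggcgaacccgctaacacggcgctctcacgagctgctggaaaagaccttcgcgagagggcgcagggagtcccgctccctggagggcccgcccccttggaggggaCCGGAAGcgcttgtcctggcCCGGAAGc
NOP16: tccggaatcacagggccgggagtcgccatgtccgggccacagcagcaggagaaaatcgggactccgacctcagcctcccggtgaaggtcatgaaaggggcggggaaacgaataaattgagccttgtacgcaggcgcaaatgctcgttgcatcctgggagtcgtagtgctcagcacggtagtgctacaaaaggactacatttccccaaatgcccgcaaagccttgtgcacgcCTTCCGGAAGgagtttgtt
WDR3: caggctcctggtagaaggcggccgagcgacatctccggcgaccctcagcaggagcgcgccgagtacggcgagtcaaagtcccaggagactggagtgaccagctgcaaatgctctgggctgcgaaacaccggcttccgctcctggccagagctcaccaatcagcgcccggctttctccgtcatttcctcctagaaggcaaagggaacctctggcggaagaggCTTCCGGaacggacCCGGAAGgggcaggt
DDX21: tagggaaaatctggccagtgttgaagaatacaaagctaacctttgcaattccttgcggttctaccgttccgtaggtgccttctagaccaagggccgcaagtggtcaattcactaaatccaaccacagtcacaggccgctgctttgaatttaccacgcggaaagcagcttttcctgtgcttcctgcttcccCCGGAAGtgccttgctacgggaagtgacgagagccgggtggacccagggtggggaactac
UTP20: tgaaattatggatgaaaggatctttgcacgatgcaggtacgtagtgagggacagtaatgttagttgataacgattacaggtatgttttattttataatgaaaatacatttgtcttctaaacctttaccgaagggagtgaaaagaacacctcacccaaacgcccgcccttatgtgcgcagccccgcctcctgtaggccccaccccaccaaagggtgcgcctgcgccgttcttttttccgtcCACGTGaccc
The TSR1 window held CCGGAAG at 28 and 8 bases before the start (first base of the match), both as printed. In NOP16 the matches on the opposite strands, at 19 and 16 bases, overlap in CTTCCGGAAG, since both hold the palindrome CCGG. WDR3 held 1 match in each orientation, at 29 and 15 bases, DDX21 held 1 at 60 bases, and the CACGTG of UTP20 began 10 bases before the start. MRTO4 and WDR43, which fell under obatoclax by log2 changes of -0.695 and -0.42, held neither CCGGAAG nor CACGTG in their windows and are not shown.

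Of the 41 genes, 35 had a promoter entry in the RefSeq table, and RRP12, RRS1, NOLC1, NOP58, DDX52 and RRP1B were not matched. CCGGAAG on either strand was in 15 of 35 windows (42.9%), against 17.6% of the windows of all genes tested and 8.82% of all promoters. CACGTG was in 2 of 35 (5.71%), against 9.31% and 6.49%. The 2 were UTP20, with a log2 change under obatoclax of -0.586, and UTP18, with -0.015. CCAAT was in 13 of 35 (37.1%), against 36.1% and 33%. Median GC content was 63.6% in the members' windows, 64.8% in those of all genes tested and 58% in all promoters. The median log2 change under obatoclax was -0.30 in the 15 members with CCGGAAG (-0.541 to 0.019) and -0.23 in the 20 without it (-0.695 to 0.053). It was -0.294 in the 13 members with CCAAT and -0.265 in the 22 without, a small gap. For CACGTG it was -0.30, from only 2 members at -0.586 and -0.015, and -0.274 in the 33 without. These splits were not tested. A match is a description of letters in a window, not of a bound site.

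The first comparison set obatoclax against vehicle over both lines and both doses. Most members were lower under obatoclax: the log2 change was below 0 in 38 of 41 members, against 40.7% of all genes tested, and its median was -0.28 in the members and 0.04 in all genes. The size was modest, between -0.70 (MRTO4) and 0.05 (NOB1), that is at most 1.62-fold lower. Without a term for the replicate number, limma called 0 members at an adjusted p under 0.05, where 0.189% of all genes were called lower and 0.644% higher. At an unadjusted p under 0.05, 21 members were lower (5.16% of all genes) and 0 higher (9.42%).

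The replicate numbers paired the samples, so the fit with the number as a block stands beside each result whose call it changed. With the block, limma called 10 of 41 members as lower, against 1.42% of all genes called lower, and 0 members as higher, against 2.68%. They were RRP12, RRS1, TSR1, NOP16, UTP20, DDX21, MRTO4, WDR43, NOLC1 and WDR3. Fewer members were called in every fit that left out 1 array, and most of the 10 were no longer called without both arrays that stood apart. The share of all genes called lower also fell when either or both of those arrays were left out. The median log2 change of the members was -0.33 to -0.25 in the fits that left out 1 array. It was -0.30 without SEM-K2 3xEC50 replicate 2, -0.25 without RS4:11 vehicle replicate 1 and -0.28 without both. RRP12 and RRS1 were called in 12 of the 12 fits that left out 1 array, NOP16 in 10, TSR1 in 9, UTP20 in 5, DDX21 in 4, MRTO4, WDR3 and WDR43 in 2 and NOLC1 in 1.

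Direction was more even than the calls. In each line each obatoclax array was set against the vehicle array with the same replicate number, which gives 8 matched differences, 4 in a line, that share vehicle arrays and so are not independent. Of the 41 members, 24 were lower in 8 of 8, against 5.75% of all genes, and 0 were higher in 8 of 8, against 10.6%. By line, 25 were lower in 4 of 4 in SEM-K2 (11.6%) and 33 in RS4:11 (17.9%). Without SEM-K2 3xEC50 replicate 2, 27 members were lower in 7 of 7 (7.28% of all genes); without RS4:11 vehicle replicate 1, 24 in 6 of 6 (7.64%); and without both arrays, 27 in 5 of 5 (9.82%). All 4 obatoclax arrays lay below both vehicle arrays for 14 members in SEM-K2 (5.98% of all genes), for 24 in RS4:11 (8.30%) and for 12 in both lines (1.70%); in SEM-K2 without 3xEC50 replicate 2 it was 16 (9.13%). Those 12 were NOP58, NCL, WDR43, WDR3, WDR36, DDX52, RRS1, NOP16, NIP7, BRIX1, DDX21 and MRTO4. No member lay above in this way in SEM-K2 or RS4:11, where 12.4% and 10.8% of all genes did.

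**Figure D1:**
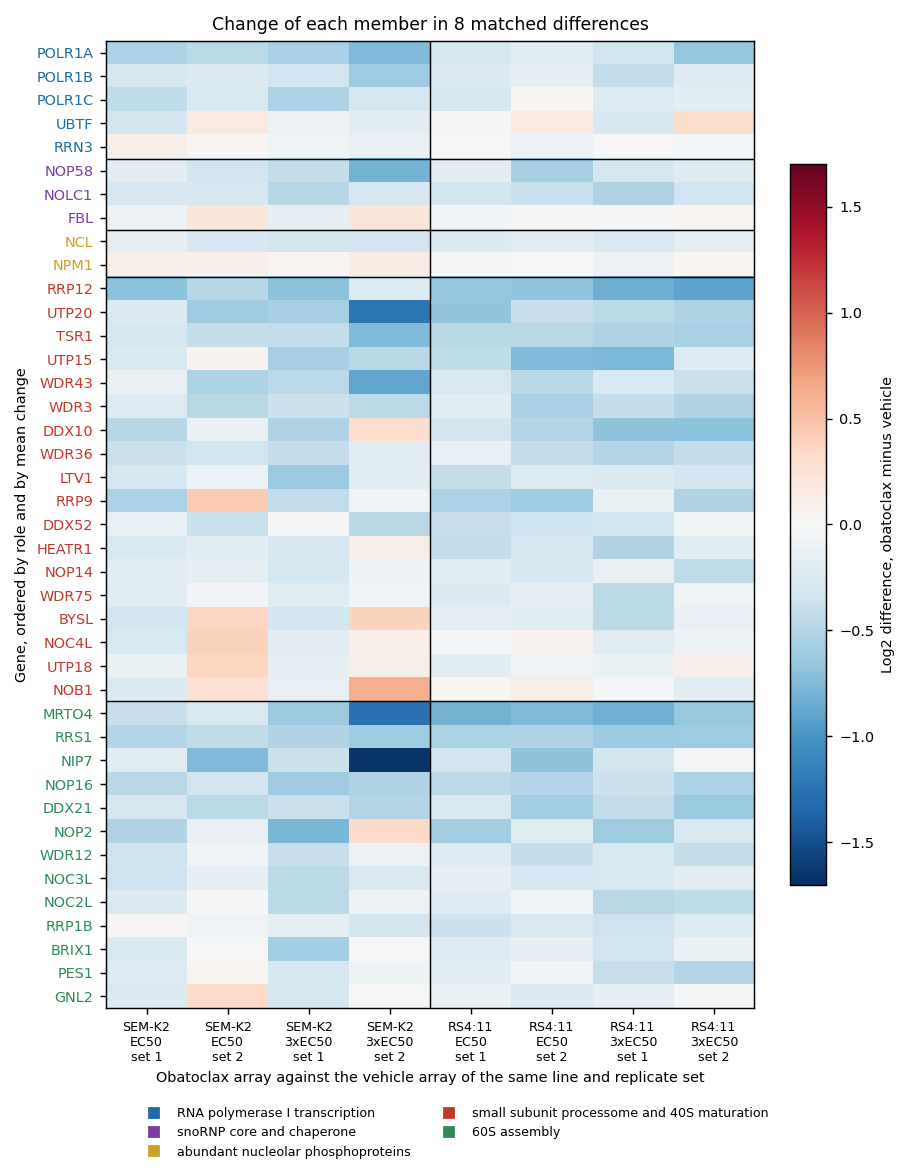
Log2 difference (colour) of each of the 41 genes (down the page, grouped and coloured by role) between an obatoclax array and the vehicle array of the same line and replicate set (8 columns). Blue is lower under obatoclax; 24 genes are below 0 in all 8 columns, and the deepest single value is NIP7 in SEM-K2 3xEC50 replicate 2.

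Among the RNA polymerase I members, the subunits POLR1A, POLR1B and POLR1C were lower and the initiation factors RRN3 and UBTF were near 0. Outside the members, the selectivity factor genes TAF1A, TAF1B, TAF1C and TAF1D had log2 changes of -0.08, 0.02, -0.22 and -0.40. The other subunits POLR1D, POLR1E, POLR1F, POLR1G and POLR1H had 0.45, -0.12, -0.26, -0.16 and 0.06. POLR1A, the largest subunit, had log2 values of 6.70 and 7.46 with vehicle, 6.17 and 7.0 at EC50 and 6.14 and 6.71 at 3xEC50 in SEM-K2. Its values in RS4:11 were 6.70 and 7.01 with vehicle, 6.41 and 6.81 at EC50 and 6.36 and 6.35 at 3xEC50. In both lines the obatoclax array of a number lay below the vehicle array of that number, but the groups overlapped, since arrays numbered 1 were lower than arrays numbered 2 in 5 of 6 groups. The change was -0.47 ± 0.12 (SE) with the block and did not pass (adjusted p = 0.0694).

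POLR1B, the second-largest subunit, was also lower in 8 of 8 matched differences. It had 9.82 and 10.19 with vehicle, 9.52 and 9.94 at EC50 and 9.49 and 9.59 at 3xEC50 in SEM-K2. In RS4:11 it had 9.77 and 9.76 with vehicle, 9.53 and 9.61 at EC50 and 9.35 and 9.54 at 3xEC50. All obatoclax arrays lay below both vehicle arrays in RS4:11, and SEM-K2 overlapped by the second EC50 array. POLR1C, a subunit shared with RNA polymerase III, was lower in 7 of 8, with 8.76 and 8.96 with vehicle, 8.32 and 8.69 at EC50 and 8.24 and 8.66 at 3xEC50 in SEM-K2. Its RS4:11 values were 8.40 and 8.36 with vehicle, 8.10 and 8.40 at EC50 and 8.17 and 8.18 at 3xEC50, which overlapped, while the SEM-K2 groups did not. POLR1B changed by -0.31 ± 0.09 and POLR1C by -0.27 ± 0.09, neither of which passed (adjusted p = 0.0862 and 0.129 with the block).

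RRN3, which brings RNA polymerase I to the promoter, and UBTF, which binds ribosomal DNA, had changes of -0.02 (95% interval -0.18 to 0.14) and -0.02 (-0.37 to 0.32). UBTF had 8.43 and 8.14 with vehicle, 8.12 and 8.30 at EC50 and 8.35 and 7.96 at 3xEC50 in SEM-K2. The RS4:11 arrays gave 8.28 and 8.42 with vehicle, 8.30 and 8.59 at EC50 and 7.99 and 8.74 at 3xEC50, so replicates of 3xEC50 there lay apart by more than any change. Of its 3 other probe sets past the filter, 1 had a change of the opposite sign (0.22), and the others had -0.079 and -0.0017.

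The snoRNP genes split. NOLC1, a snoRNP chaperone also known as Nopp140, had 11.96 and 12.29 with vehicle, 11.67 and 12.01 at EC50 and 11.47 and 12 at 3xEC50 in SEM-K2. Its values in RS4:11 were 11.97 and 12.25 with vehicle, 11.64 and 11.88 at EC50 and 11.45 and 11.92 at 3xEC50. Within a number every obatoclax array lay below its vehicle array, and the RS4:11 groups did not overlap. NOLC1 fell by 0.36 ± 0.08 on the log2 scale with the block (adjusted p = 0.0389), a fall not called without it (adjusted p = 0.308).

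NOP58, a core protein of box C/D snoRNPs, was lower in 8 of 8 as well. Its SEM-K2 values were 12.44 and 12.76 with vehicle, 12.25 and 12.44 at EC50 and 12.04 and 11.95 at 3xEC50. Its RS4:11 values were 12.50 and 12.32 with vehicle, 12.32 and 11.77 at EC50 and 12.20 and 12.11 at 3xEC50. Obatoclax and vehicle arrays were apart in both lines by 0.01 or less, and the change of -0.37 ± 0.12 did not pass (adjusted p = 0.118 with the block). FBL, fibrillarin, the methyltransferase of the same particles, had 12.08 and 12.12 with vehicle, 11.98 and 12.32 at EC50 and 11.92 and 12.33 at 3xEC50 in SEM-K2. RS4:11 arrays showed 11.90 and 12.07 with vehicle, 11.85 and 12.10 at EC50 and 11.88 and 12.11 at 3xEC50. FBL was lower in 4 of 8 matched differences, and its change of 0.02 had a 95% interval of -0.16 to 0.20.

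Of the nucleolar phosphoproteins, NPM1, nucleophosmin, had 14.93 and 14.99 with vehicle, 15.03 and 15.08 at EC50 and 14.97 and 15.11 at 3xEC50 in SEM-K2. On RS4:11 arrays it had 14.98 and 14.98 with vehicle, 14.96 and 14.97 at EC50 and 14.88 and 15.01 at 3xEC50. These 12 values span little, obatoclax was lower in 3 of 8 matched differences, and the change was 0.03 with a 95% interval of -0.13 to 0.20. NCL, nucleolin, was lower in 8 of 8 by a mean of -0.24 ± 0.08 (adjusted p = 0.116 with the block), with no overlap of obatoclax and vehicle arrays in either line.

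The small subunit processome and 40S maturation group held 18 members. Of these, 17 were below 0 with a median log2 change of -0.30, 10 were lower in 8 of 8 matched differences, and 5 were called with the block (RRP12, UTP20, TSR1, WDR43 and WDR3). RRP12, whose yeast counterpart takes part in export of the subunits, had 7.85 and 8.34 with vehicle, 7.15 and 7.85 at EC50 and 7.15 and 8.11 at 3xEC50 in SEM-K2. In RS4:11 it had 7.83 and 8.56 with vehicle, 7.17 and 7.89 at EC50 and 7.0 and 7.66 at 3xEC50. Set 1 minus set 2 was between -0.96 and -0.50 in the 6 groups, about the size of the drug difference, so groups overlapped, although each number was lower under obatoclax in 4 of 4 differences. RRP12 was 1.56-fold lower under obatoclax, a log2 change of -0.65 ± 0.08 with the block (adjusted p = 0.00646) and of -0.65 ± 0.26 without it (adjusted p = 0.299).

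UTP20, a large protein of the processome, had 7.43 and 8.35 with vehicle, 7.18 and 7.75 at EC50 and 6.87 and 7.12 at 3xEC50 in SEM-K2. The RS4:11 arrays gave 7.39 and 7.95 with vehicle, 6.72 and 7.56 at EC50 and 6.93 and 7.44 at 3xEC50. Its groups overlapped too, through the same offset between numbers. UTP20 changed by -0.59 ± 0.10 with the block (adjusted p = 0.0212), against an adjusted p of 0.297 without it.

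TSR1, a GTPase-like factor of 40S precursors, had 10.56 and 10.97 with vehicle, 10.27 and 10.57 at EC50 and 10.14 and 10.23 at 3xEC50 in SEM-K2. Its values in RS4:11 were 10.46 and 10.70 with vehicle, 9.99 and 10.23 at EC50 and 9.94 and 10.15 at 3xEC50. Obatoclax arrays lay below both vehicle arrays in RS4:11, and in SEM-K2 by all but the second EC50 array, which exceeded the first vehicle array by 0.01. The TSR1 change was -0.49 ± 0.08 with the block (adjusted p = 0.0136) and had an adjusted p of 0.116 without it.

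WDR43, the human counterpart of yeast Utp5 and tied to transcription of ribosomal DNA, had 9.52 and 9.83 with vehicle, 9.39 and 9.31 at EC50 and 9.07 and 8.95 at 3xEC50 in SEM-K2. RS4:11 arrays showed 9.47 and 9.63 with vehicle, 9.21 and 9.16 at EC50 and 9.22 and 9.25 at 3xEC50. WDR3, a component of the UTP-B part of the processome, had 9.91 and 10.23 with vehicle, 9.68 and 9.75 at EC50 and 9.54 and 9.77 at 3xEC50 in SEM-K2. Both genes were lower in every obatoclax array than in both vehicle arrays of the line. WDR3 values in RS4:11 were 9.92 and 10.09 with vehicle, 9.71 and 9.53 at EC50 and 9.52 and 9.58 at 3xEC50. With the block WDR43 changed by -0.42 ± 0.09 (adjusted p = 0.0354) and WDR3 by -0.40 ± 0.09 (adjusted p = 0.0434), and without it neither passed (adjusted p = 0.0808 and 0.121).

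UTP15, another processome protein tied to ribosomal DNA transcription, had 8.04 and 8.15 with vehicle, 7.78 and 8.21 at EC50 and 7.47 and 7.68 at 3xEC50 in SEM-K2. On RS4:11 arrays it had 7.39 and 7.48 with vehicle, 6.96 and 6.72 at EC50 and 6.62 and 7.26 at 3xEC50. Only 1 of 8 matched differences was above 0, SEM-K2 EC50 replicate 2. HEATR1, the counterpart of yeast Utp10, had 9.99 and 10.34 with vehicle, 9.73 and 10.15 at EC50 and 9.70 and 10.43 at 3xEC50 in SEM-K2 and was lower in 7 of 8. Its exception was SEM-K2 3xEC50 replicate 2, the array that stood apart, and of its 4 other probe sets past the filter 3 were lower too, from -0.29 to -0.21, while the dimmest had 0.23. RS4:11 values of HEATR1 were 9.82 and 10.13 with vehicle, 9.42 and 9.85 at EC50 and 9.32 and 9.92 at 3xEC50. Neither UTP15 (-0.43 ± 0.12) nor HEATR1 (-0.26 ± 0.09) passed, with adjusted p = 0.0844 and 0.132 with the block.

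DDX10, a helicase, had 8.88 and 8.99 with vehicle, 8.39 and 8.86 at EC50 and 8.37 and 9.28 at 3xEC50 in SEM-K2. Its value on that array was the highest of the line, and all other obatoclax arrays lay below the vehicle arrays. In RS4:11 it had 8.57 and 8.91 with vehicle, 8.26 and 8.40 at EC50 and 7.88 and 8.21 at 3xEC50, with no overlap. The change was -0.38 ± 0.12 over all arrays (adjusted p = 0.105 with the block) and -0.46 ± 0.09 without that array (adjusted p = 0.0373). RRP9, a protein of the U3 snoRNP, had 7.08 and 6.86 with vehicle, 6.54 and 7.30 at EC50 and 6.65 and 6.81 at 3xEC50 in SEM-K2. Those groups overlapped, while those of RS4:11 did not, at 7.02 and 7.50 with vehicle, 6.48 and 6.90 at EC50 and 6.90 and 6.99 at 3xEC50. DDX52, a helicase, had 8.29 and 8.57 with vehicle, 8.16 and 8.19 at EC50 and 8.26 and 8.10 at 3xEC50 in SEM-K2. RS4:11 gave 8.22 and 7.96 with vehicle, 7.82 and 7.61 at EC50 and 7.87 and 7.89 at 3xEC50, so it was below vehicle in both lines, by -0.27 on average (adjusted p = 0.137 with the block).

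WDR36 changed by -0.35 ± 0.08, with no overlap in either line, LTV1, a 40S assembly factor, by -0.30, NOP14 by -0.22 and WDR75 by -0.18, and none of these passed with the block (adjusted p = 0.0536, 0.111, 0.31 and 0.346). NOB1, the nuclease that makes the mature end of 18S ribosomal RNA, had 10.29 and 10.02 with vehicle, 10.05 and 10.28 at EC50 and 10.14 and 10.64 at 3xEC50 in SEM-K2. The RS4:11 arrays gave 10.03 and 10.16 with vehicle, 10.07 and 10.26 at EC50 and 10.00 and 9.99 at 3xEC50, and obatoclax was lower in 4 of 8.

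BYSL, bystin, had 9.67 and 9.47 with vehicle, 9.35 and 9.83 at EC50 and 9.34 and 9.84 at 3xEC50 in SEM-K2. Its values in RS4:11 were 9.82 and 10.10 with vehicle, 9.65 and 9.89 at EC50 and 9.37 and 9.96 at 3xEC50. UTP18 had 11.27 and 11.08 with vehicle, 11.14 and 11.45 at EC50 and 11.10 and 11.19 at 3xEC50 in SEM-K2. Obatoclax and vehicle arrays of BYSL and UTP18 overlapped in both lines. UTP18 in RS4:11 had 11.10 and 10.84 with vehicle, 10.91 and 10.76 at EC50 and 10.99 and 10.92 at 3xEC50. The 95% intervals were -0.19 to 0.30 for NOB1, -0.37 to 0.15 for BYSL, -0.24 to 0.21 for UTP18 and -0.27 to 0.21 for NOC4L, so a change of the size seen in RRP12 lay outside them.

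**Figure D2:**
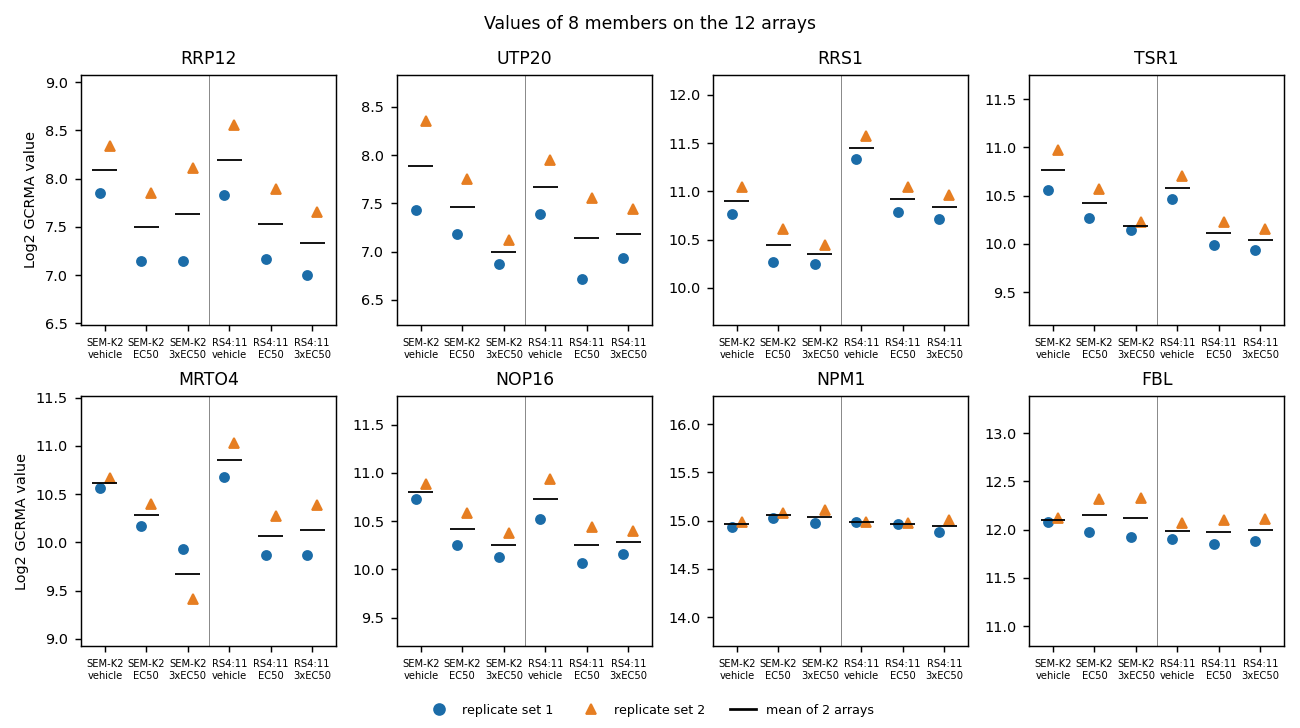
Log2 GCRMA values (vertical axis, each panel spanning the same log2 range) of 8 genes on the 12 arrays by line and dose; circles are replicate set 1, triangles set 2, and bars the mean of 2 arrays. RRP12, UTP20, RRS1, TSR1, MRTO4 and NOP16 are lower at both doses than with vehicle within a set, while NPM1 and FBL stay near their vehicle values; RRP12 and UTP20 show the offset between sets.

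All 13 members of the 60S assembly group were below 0, with a median log2 change of -0.28, and 9 were lower in 8 of 8 matched differences. With the block 4 were called (MRTO4, RRS1, NOP16 and DDX21). RRS1, which in yeast helps bring the 5S ribonucleoprotein into the 60S precursor, had 10.76 and 11.04 with vehicle, 10.27 and 10.61 at EC50 and 10.25 and 10.44 at 3xEC50 in SEM-K2. RS4:11 arrays showed 11.33 and 11.57 with vehicle, 10.79 and 11.04 at EC50 and 10.71 and 10.96 at 3xEC50. Every obatoclax array lay below both vehicle arrays of its line. The change was -0.54 ± 0.07 with the block (adjusted p = 0.00646), or 1.46-fold lower, and had an adjusted p of 0.0803 without it.

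MRTO4, whose yeast counterpart holds the place of the stalk protein P0 on the 60S precursor, had 10.56 and 10.67 with vehicle, 10.17 and 10.40 at EC50 and 9.93 and 9.41 at 3xEC50 in SEM-K2. On RS4:11 arrays it had 10.68 and 11.03 with vehicle, 9.87 and 10.27 at EC50 and 9.87 and 10.39 at 3xEC50. Its groups did not overlap in either line, and its lowest value was on the array that stood apart. The MRTO4 change of -0.70 ± 0.14 was the largest of the 41 (adjusted p = 0.0322 with the block, 0.0835 without). Without that array it was -0.59 ± 0.09 (adjusted p = 0.0222 with the block).

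NOP16, a 60S factor, had 10.73 and 10.88 with vehicle, 10.25 and 10.58 at EC50 and 10.13 and 10.38 at 3xEC50 in SEM-K2. In RS4:11 it had 10.52 and 10.94 with vehicle, 10.06 and 10.44 at EC50 and 10.16 and 10.40 at 3xEC50. DDX21, a nucleolar helicase, had 12.70 and 13.07 with vehicle, 12.41 and 12.61 at EC50 and 12.33 and 12.56 at 3xEC50 in SEM-K2. For both genes each line's obatoclax arrays lay below both its vehicle arrays. DDX21 in RS4:11 had 12.16 and 12.51 with vehicle, 11.90 and 11.93 at EC50 and 11.74 and 11.87 at 3xEC50. With the block NOP16 changed by -0.47 ± 0.08 (adjusted p = 0.0149) and DDX21 by -0.44 ± 0.08 (adjusted p = 0.0237), and without it the adjusted p was 0.157 and 0.131.

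NIP7, a factor of pre-60S particles, had 9.51 and 10.17 with vehicle, 9.31 and 9.42 at EC50 and 9.13 and 8.52 at 3xEC50 in SEM-K2. The RS4:11 arrays gave 9.54 and 9.53 with vehicle, 9.21 and 8.85 at EC50 and 9.23 and 9.51 at 3xEC50. Obatoclax and vehicle arrays were apart in both lines. The mean change was -0.54 ± 0.16 (adjusted p = 0.101 with the block), and -0.45 ± 0.14 (adjusted p = 0.141) without the SEM-K2 array that stood apart, on which NIP7 was lowest. NOP2, an RNA methyltransferase, showed the reverse on that array, with 9.76 and 9.86 with vehicle, 9.25 and 9.73 at EC50 and 8.99 and 10.18 at 3xEC50 in SEM-K2. Its RS4:11 values were 9.79 and 9.95 with vehicle, 9.20 and 9.74 at EC50 and 9.20 and 9.68 at 3xEC50, without overlap, and its mean change was -0.34 ± 0.14 (adjusted p = 0.204 with the block).

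PES1 and WDR12 form a complex with BOP1 in 60S precursors. WDR12 had 10.21 and 10.46 with vehicle, 9.86 and 10.39 at EC50 and 9.83 and 10.36 at 3xEC50 in SEM-K2. Its values in RS4:11 were 10.12 and 10.51 with vehicle, 9.90 and 10.10 at EC50 and 9.85 and 10.11 at 3xEC50. It was lower in 8 of 8, and apart from vehicle in RS4:11 only. NOC2L, a nucleolar factor that also binds chromatin regulators, had 8.71 and 8.72 with vehicle, 8.47 and 8.70 at EC50 and 8.26 and 8.63 at 3xEC50 in SEM-K2. RS4:11 arrays showed 8.48 and 8.94 with vehicle, 8.26 and 8.88 at EC50 and 8.01 and 8.51 at 3xEC50, where groups overlapped. Changes were -0.28 for WDR12, -0.25 for NOC2L, -0.21 for PES1, -0.26 for NOC3L, -0.22 for RRP1B, -0.21 for BRIX1 and -0.10 for GNL2, a GTPase, and none passed (adjusted p from 0.103 to 0.647 with the block).

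**Figure D3:**
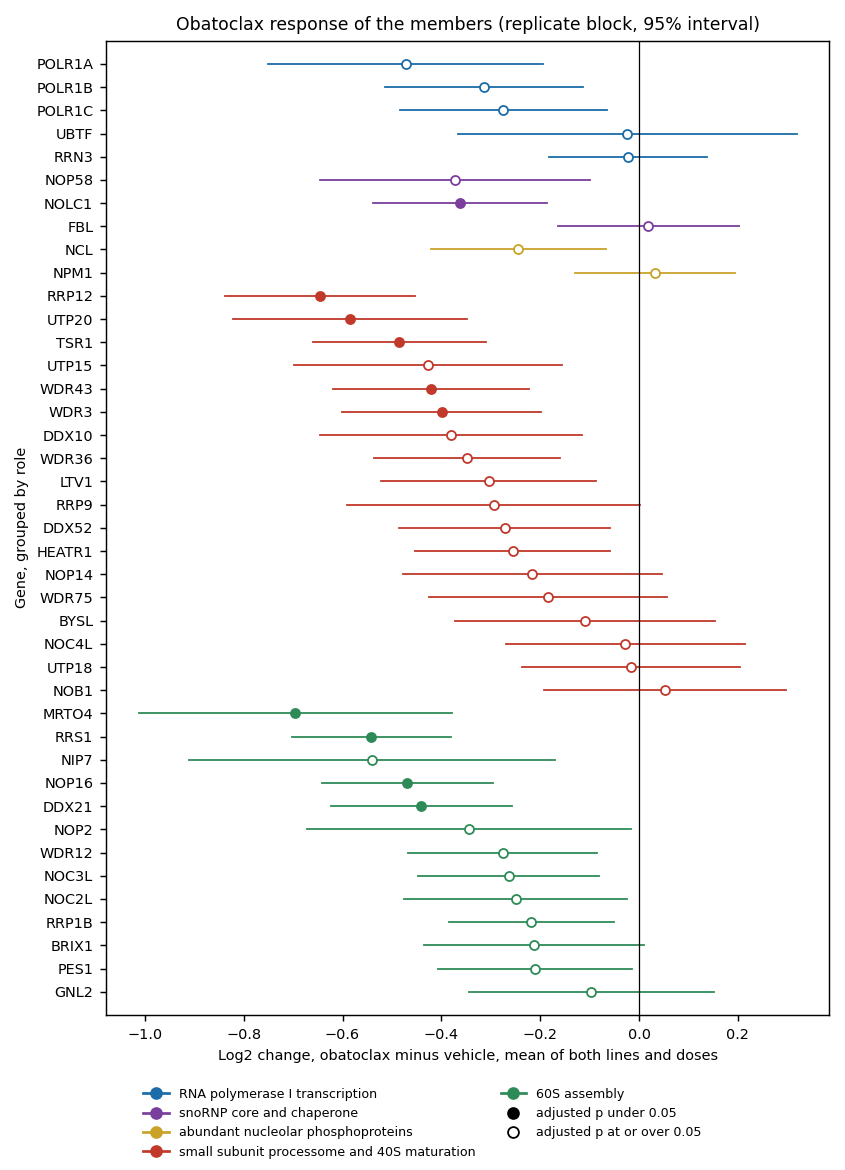
Log2 change under obatoclax (horizontal axis, mean of both lines and doses, obatoclax minus vehicle) of each of the 41 genes, with 95% interval, from the fit with the replicate block; filled circles passed an adjusted p under 0.05. The 10 filled circles all lie below 0, and RRN3, UBTF, FBL, NPM1, NOB1, UTP18 and NOC4L sit near 0.

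Each line and dose was then taken alone. At EC50 in SEM-K2, 33 of 41 members were below 0 (38.1% of all genes), with a median of -0.23 against 0.05 in all genes. At 3xEC50 in SEM-K2, 37 were below 0 (41.4%), with a median of -0.29 against 0.06. At EC50 in RS4:11, 38 were below 0 (44.3%), with a median of -0.31 against 0.02, and at 3xEC50 there 39 (46.0%), with -0.32 against 0.02. Without SEM-K2 3xEC50 replicate 2 the SEM-K2 3xEC50 median was -0.51, or -0.42 with the block, both of which rest on 1 array.

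Without the block limma called 0 members in any of the 4 comparisons of 1 line and dose, where it called 0.0568% of all genes as lower in SEM-K2 at EC50, 0.199% in SEM-K2 at 3xEC50 and 0% in RS4:11 at either dose. The shares called higher were 0.114%, 0.625% and 0%. At an unadjusted p under 0.05, 2 members were lower in SEM-K2 at EC50 (1.51% of all genes), 12 at 3xEC50 (3.58%), 8 in RS4:11 at EC50 (1.73%) and 7 at 3xEC50 (2.38%). At that threshold 0 members were higher in any of these 4 comparisons, against, in the same order, 3.97%, 8.10%, 2.47% and 2.53% of all genes. With the block 2 members passed in SEM-K2 at 3xEC50 (0.530% of all genes lower), UTP20 by -0.90 ± 0.17 (adjusted p = 0.0364) and RRS1 by -0.56 ± 0.12 (adjusted p = 0.0486). Without SEM-K2 3xEC50 replicate 2, which leaves 1 array there and takes its spread from the other groups, the changes were -0.68 for UTP20 and -0.51 for RRS1, and neither passed (adjusted p = 0.250 and 0.282). Without RS4:11 vehicle replicate 1 neither passed either (0.0620 and 0.0858), at changes of -0.90 and -0.56. It called 0 members as higher there (1.55% of all genes). In the other 3 comparisons of 1 line and dose the block called 0 members, where all genes called reached 0.123% lower and 0.312% higher in SEM-K2 at EC50 and 0% in RS4:11. RRS1 and UTP20 were among 19 lower members at an unadjusted p under 0.05 in SEM-K2 at 3xEC50 with the block (5.63% of all genes). At an unadjusted p under 0.05 it then had 11 lower in SEM-K2 at EC50 (2.88% of all genes), 16 in RS4:11 at EC50 (3.41%) and 18 in RS4:11 at 3xEC50 (4.73%).

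Over both arrays of the group, the members with the lowest changes in SEM-K2 at 3xEC50 were NIP7 (-1.02), MRTO4 (-0.95), UTP20 (-0.90) and WDR43 (-0.67). Without replicate 2, the array that stood apart, they were UTP20 (-1.02), RRP12 (-0.94), POLR1A (-0.93) and NOP2 (-0.82), or POLR1A (-0.70), UTP20 (-0.68), NOP2 (-0.65) and NIP7 (-0.64) with the block. In RS4:11 at 3xEC50 they were RRP12 (-0.87), MRTO4 (-0.73), DDX10 (-0.69) and RRS1 (-0.61). The difference between the lines in the response, SEM-K2 minus RS4:11, had a median of 0.06 in the members and 0.05 in all genes, and was below 0 in 12 members (40.7% of all genes). It ran from -0.41 for NIP7 to 0.34 for DDX10. When 1 array was left out, it lay between -0.74 and -0.07 for NIP7 and between 0.11 and 0.56 for DDX10. Limma called 0 members with or without the block. Without the block 0.00947% of all genes were called lower and 0.0568% higher, and with it 0.00947% and 0.0379%. At an unadjusted p under 0.05 no member differed without the block, against 1.04% of all genes lower and 1.77% higher. At 3xEC50 alone 1 member, NIP7, did (-0.85 ± 0.37, adjusted p = 1.00; 1.16% of all genes lower), and 0 did with the block. On SEM-K2 3xEC50 replicate 2, NIP7 had its lowest SEM-K2 value and DDX10 its highest. Without that array and without the block, the SEM-K2 3xEC50 changes were -0.71 for NIP7 and -0.57 for DDX10. Across the 41 members the mean changes of the lines correlated at r = 0.73 and rho = 0.74, against 0.52 and 0.53 across all 10561 genes. Members share arrays and normalisation, so this describes these arrays.

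The step between doses was small. At 3xEC50, 36 of 41 members were lower than at EC50 (49.4% of all genes), with a median of -0.07 against 0.00. That median ran from -0.15 (without SEM-K2 EC50 replicate 1) to 0.0045 (without SEM-K2 3xEC50 replicate 1) when 1 array was left out. The largest steps were those of MRTO4 (-0.28 ± 0.16), NOC2L (-0.23 ± 0.11) and UTP20 (-0.22 ± 0.12). Without SEM-K2 3xEC50 replicate 2 that of MRTO4 was -0.15, and the largest were those of POLR1A (-0.35), NOC2L (-0.32) and UTP20 (-0.28). Over all arrays, DDX52 (0.08), HEATR1 (0.05) and RRP9 (0.04) had the highest values. Without SEM-K2 3xEC50 replicate 2 the highest were DDX52 (0.12), NIP7 (0.05) and UBTF (0.03), while HEATR1 had -0.13 and RRP9 -0.0047. The fits with and without the block called 0 members, and 0% of all genes, and at an unadjusted p under 0.05 without the block there was no member either, against 0.379% of all genes lower and 0.388% higher.

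**Figure D4:**
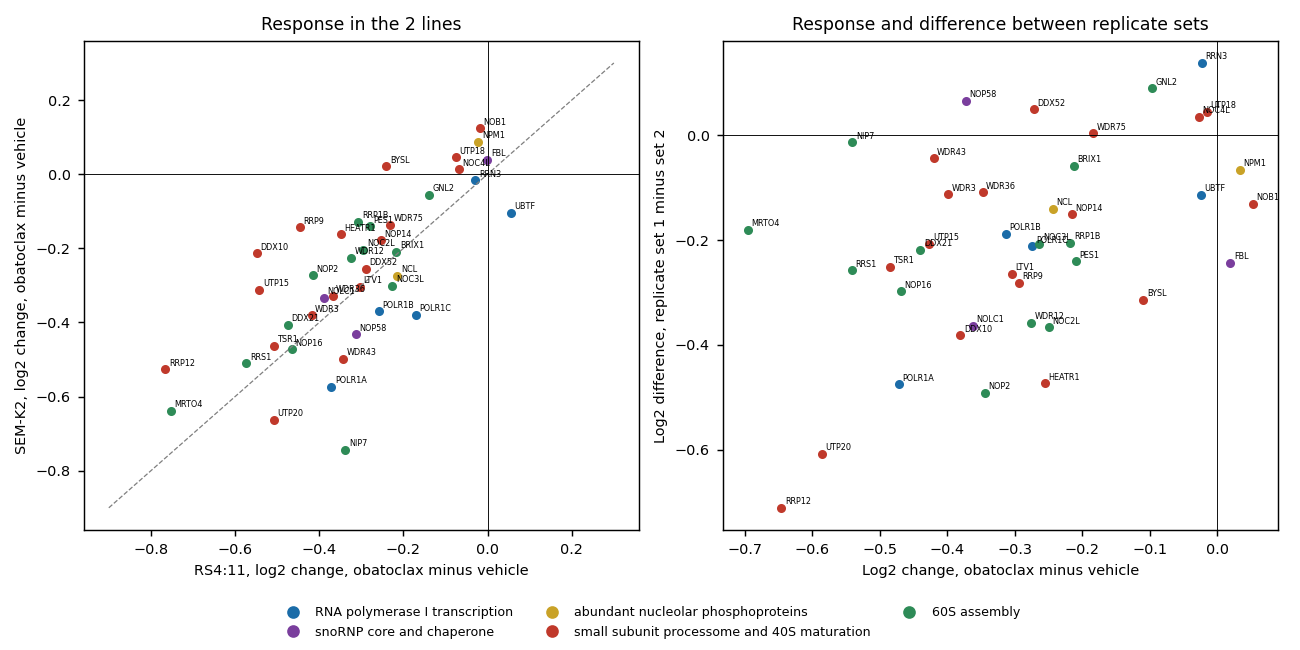
Left, mean log2 change of each gene under obatoclax in SEM-K2 (vertical) and RS4:11 (horizontal), with the line of equal change dashed. Right, log2 difference of replicate set 1 minus set 2 (vertical) against the log2 change under obatoclax (horizontal), both from the fit with the block; RRP12 and UTP20 are low on both axes, and MRTO4 and NIP7 on the horizontal one alone.

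Between the lines with vehicle alone, members differed little beside other genes. The median difference, SEM-K2 minus RS4:11, was 0.11 in the members and 0.01 in all genes, and 11 members were below 0 (48.6% of all genes). Limma called 1 member without the block, NOC3L, a 60S factor, against 10.0% of all genes called higher and 9.60% called lower. NOC3L had 10.11 and 10.26 with vehicle, 9.76 and 10.11 at EC50 and 9.66 and 10.00 at 3xEC50 in SEM-K2. On RS4:11 arrays it had 9.47 and 9.61 with vehicle, 9.30 and 9.32 at EC50 and 9.19 and 9.43 at 3xEC50. Every SEM-K2 array lay above every RS4:11 array, and the vehicle difference was 0.65 ± 0.18 (adjusted p = 0.0337).

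With the block 4 members were called higher in SEM-K2 vehicle (13.8% of all genes) and 1 lower (13.0%). These were NOC3L, UTP15 (0.66 ± 0.19, adjusted p = 0.0338), DDX21 (0.55 ± 0.13, 0.0136), POLR1C (0.47 ± 0.15, 0.0464) and, lower, RRS1 (-0.54 ± 0.12, 0.0073). Without RS4:11 vehicle replicate 1 the median difference of the members was 0.14 with the block. The calls other than that of NOC3L were then lost, and smaller shares of all genes were called in both directions. BYSL (-0.39 ± 0.19) and RRP9 (-0.29 ± 0.21) were lower in SEM-K2 without passing (adjusted p = 0.174 and 0.373). The share of members called was below that of all genes in either direction, with and without the block.

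The replicate sets were the other axis of variation. Set 1 was lower than set 2 in 34 of 41 members (46.3% of all genes), with a median difference, set 1 minus set 2, of -0.21. In the fit with the block, limma called 10 members as lower in set 1 (4.60% of all genes) and 0 as higher (7.71%). RRP12 differed by -0.71 ± 0.08 (adjusted p = 0.00385), UTP20 by -0.61 ± 0.10 (0.0103), NOP2 by -0.49 ± 0.14 (0.0488), POLR1A by -0.48 ± 0.12 (0.0323) and HEATR1 by -0.47 ± 0.08 (0.013). The others called were NOC2L (-0.37), NOLC1 (-0.36), WDR12 (-0.36), NOP16 (-0.30) and RRS1 (-0.26).

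The medians were -0.21 without SEM-K2 3xEC50 replicate 2, -0.22 without RS4:11 vehicle replicate 1 and -0.22 without both. Fewer members were called in each of these fits, and the share of all genes called lower fell as well. Without both arrays no gene at all was called lower. Set 1 lay below set 2 in 6 of 6 groups for 17 members (8.72% of all genes), 8 of them in the 60S group and 6 in the small subunit group. It lay above in 6 of 6 for 1 member, RRN3 (13.0% of all genes). The difference between sets was at least as large as the drug change in 18 of 41 members, a count not taken over all genes tested. Among these were RRN3, UBTF, FBL, NPM1, UTP18, NOC4L and NOB1, whose drug changes lay near 0. RRP12, UTP20 and NOLC1 were those of them called under obatoclax. For MRTO4, NIP7 and WDR43 the difference between sets was -0.18, -0.01 and -0.04. RRP12, UTP20, NOP16, NOLC1 and RRS1 were called both between sets and under obatoclax in that fit.

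Other gene lists of the pathway placed these changes. The lists were chosen with results of these data known. Among 86 other ribosome biogenesis factors, 70 were below 0 under obatoclax (40.7% of all genes), with a median of -0.13. Of the 86, 15 were lower in 8 of 8 matched differences (5.75% of all genes). With the block 5 of the 86 were called lower, against 1.42% of all genes. They were MDN1 (-0.43), an ATPase of 60S maturation, PNO1 (-0.44), a 40S factor, TAF1D (-0.40), a subunit of the RNA polymerase I selectivity factor, RCL1 (-0.40), a processome protein, and DDX51 (-0.38), a helicase. POLR1D, a subunit shared by RNA polymerases I and III, rose by 0.45 (adjusted p = 0.0356 with the block). Some of these genes were also called between sets in that fit. Set 1 minus set 2 was -0.56 for MDN1, -0.49 for RCL1, -0.28 for TAF1D and 0.34 for POLR1D, while PNO1 and DDX51 were not called there. None of the 86 passed without the block, and 12 had an unadjusted p under 0.05 there in either direction, a share near the 14.6% of all genes. Of all genes, 5.16% were lower and 9.42% higher at that threshold.

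Genes of cytosolic ribosomal proteins lay near the median of all genes. Of 51 tested, 45 were above 0 (59.3% of all genes), the median was 0.03 against 0.04 in all genes, the range was -0.22 to 0.15, and 0 were lower in 8 of 8 while 5 were higher, a share near the 10.6% of all genes. None had an unadjusted p under 0.05. The median was -0.05 in 17 RNA polymerase III genes, -0.13 in 13 RNA exosome genes and -0.03 in 41 genes of the mitochondrial ribosome, none of which passed with or without the block.

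**Figure D5:**
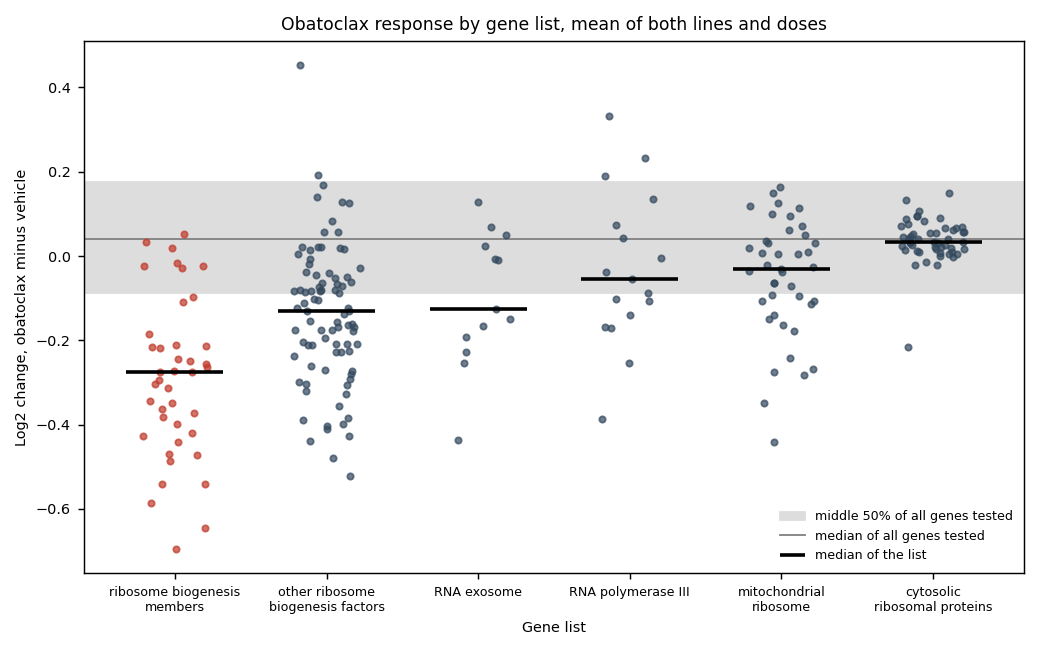
Log2 change under obatoclax (vertical axis, obatoclax minus vehicle, mean of both lines and doses) of every gene in 6 lists; bars are list medians, and the grey line and band give the median and middle 50% of all genes tested. The members' median of -0.28 is the lowest of the 6, and that of the cytosolic ribosomal proteins, 0.03, lies next to the median of all genes.

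MYC, the transcription factor, had 13.27 and 13.22 with vehicle, 12.79 and 12.77 at EC50 and 12.75 and 12.81 at 3xEC50 in SEM-K2. In RS4:11 it had 13.04 and 13.25 with vehicle, 12.74 and 13.15 at EC50 and 12.62 and 13.05 at 3xEC50. It was lower in 8 of 8 matched differences, apart from vehicle in SEM-K2 and overlapping in RS4:11. The mean change of -0.36 did not pass (adjusted p = 0.211 without the block and 0.0783 with it). The 8 genes of the MYC network had a median of 0.07, and MXD3, a repressor of that network, rose by 0.32 with the block (adjusted p = 0.0490), was not called without it, and differed by 0.51 between sets, set 1 minus set 2 (adjusted p = 0.00639).

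Probe sets bear on single values. Of the 41 members, 15 stood on a probe set of the _s_at kind, which may pick up more than 1 transcript, and 25 had several probe sets. Of 38 other probe sets of members past the filter, 34 were below 0 under obatoclax where the chosen one was, and 2 had the opposite sign, 1 each of UBTF and HEATR1.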

How the data were processed

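RNA of 12 samples was measured on Affymetrix U133 Plus 2 arrays. The submitters' processing notes name GCRMA, with no version and no scale, and the values as deposited by the authors were read as log2. GCRMA normalises arrays by quantiles, so a shift of all genes would not show. Array values carry no depth, and the number of arrays limits the precision. Probe sets were named where the platform annotation gave 1 symbol (41097 of 54675; 1801 had several and 11777 were not listed), without 62 control probe sets. Per gene the probe set with the highest mean was kept. The test took the 10561 genes with a log2 value over 4 in at least 2 of 12 arrays.

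Contrasts were fitted by limma 3.58.1 (functions lmFit and eBayes; R 4.3.3, package data.table, version 1.17.8) as 6 group means over 12 arrays with 6 residual degrees of freedom (5 with the replicate number as a block). P-values were adjusted by Benjamini-Hochberg over all genes tested, and calls were made at an adjusted p under 0.05. Deviations of same-numbered arrays from their group means correlated at 0.19 to 0.60 in 15 of 15 pairs of groups, all over 0.1, so the numbers were taken to pair the samples; the labels do not say what a number marks. The ± sign is the standard error. The fits were tested on simulated data.

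By rule, array values are given for members called in a contrast (the 12 with the smallest adjusted p where over 12), the 4 largest falls and 2 largest rises per obatoclax contrast, the 3 largest each way in the other contrasts, and the highest member of each role, 28 members in all. TSR1, WDR3 and MYC were added after their values were seen. The members and lists were chosen with earlier results of these data known. Alternatives were the block, leaving out arrays, filters, probe set rules, scalings and eBayes settings. Leaving out arrays in the fit with the block was chosen after seeing the data. Scanner files were not used here.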

Additional observations from a re-analysis of the deposited data

How the results depend on the processing

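The median change of the members kept its direction in the 4 dose comparisons and in the mean over both lines and doses under every alternative run. When 1 array was left out it ran from -0.34 to -0.22 in the mean, -0.38 to -0.07 in SEM-K2 at EC50, -0.51 to -0.16 in SEM-K2 at 3xEC50, -0.37 to -0.23 in RS4:11 at EC50 and -0.40 to -0.21 in RS4:11 at 3xEC50. Medians of the other contrasts turned sign: -0.15 to 0.0045 for the dose step, -0.05 to 0.14 for the difference between lines in the response and -0.0037 to 0.18 between vehicle groups. The replicate block called 2 members in SEM-K2 at 3xEC50, 5 between the vehicle groups and 10 in the mean over lines and doses, and a block within each line called 2, 5 and 11; the block changed no other count of calls. Leaving out 1 array without the block gave 0 to 1 members in the mean (1 without SEM-K2 vehicle replicate 1) and 0 to 2 between vehicle groups, and with the block 2 to 9 in the mean (2, 3, 4, 5, 7 or 9), and 1 without both arrays that stood apart. EBayes with trend and robust called 1 in the mean and 2 between vehicle groups, averaging each gene's probe sets 2 there, and no filter 0 there. Signs of single members were followed only for those with the largest falls and rises of each contrast. Among these, signs turned only for changes that were not called. With arrays centred on the median of the genes tested, FBL was -0.010 and UBTF -0.00892 in RS4:11 at 3xEC50, NPM1 -0.00542 in SEM-K2 at 3xEC50, and in the mean NPM1 was -0.020 and NOB1 -0.000527; quantile normalisation gave FBL -0.024 in RS4:11 at 3xEC50. Leaving out 1 array gave ranges of -0.10 to 0.13 for FBL and -0.36 to 0.39 for UBTF in RS4:11 at 3xEC50, -0.045 to 0.24 for UBTF and -0.032 to 0.16 for NOB1 in RS4:11 at EC50, -0.012 to 0.48 for NOB1 in SEM-K2 at 3xEC50, -0.014 to 0.12 for NOB1 in the mean, -0.031 to 0.28 for UTP18 in SEM-K2 at EC50, -0.58 to 0.18 for the difference between lines of POLR1A, and dose steps of -0.13 to 0.24 for HEATR1 and -0.15 to 0.22 for RRP9. The cause of these changes was not tested. A fit to the arrays of 1 line gave no value for contrasts over both lines. Arrays were few, 2 in a group, which limits what could be called.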
